A study of Danio rerio with 8 samples.

Results

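Enzymes that make serine and pass its carbon through folate were followed in whole larvae of zebrafish labelled as *seph* mutants. *seph*, now named *selenoh*, encodes selenoprotein H, a small selenocysteine-containing protein of the nucleus. The genes were chosen by symbol: phgdh, psat1 and psph for serine synthesis, shmt1, shmt2, mthfd1b, mthfd2, mthfd1l and aldh1l2 for the folate reactions. Of these 9 symbols 7 led to 8 Ensembl IDs among the 32434 genes of the count table, and all 8 IDs were among the 27050 genes tested. mthfd2 and shmt2 were not analysed here. The name table gives the symbol MTHFD1 to both ENSDARG00000018266 and ENSDARG00000040492, and RefSeq lists mthfd1 as an older name of mthfd1b beside a separate mthfd1a. Which of the IDs is mthfd1b could not be told, so both are given by ID, as cytosolic enzymes.

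The study had 4 libraries labelled *seph* mutant and 4 labelled wild type, each of polyadenylated RNA from larvae at 5 days post fertilization. The allele, the strain, the number of larvae pooled in a library and the clutch each came from have no label (not given in the sources used here). P-values therefore measure the spread between these libraries, which may be technical.

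Serine is built from a glycolytic intermediate in the cytosol by phgdh, psat1 and psph, in that order. Serine hydroxymethyltransferases (shmt1 in the cytosol, shmt2 in mitochondria) split it into glycine and a carbon unit bound to tetrahydrofolate. Mitochondrial enzymes oxidise that unit, and mthfd1l releases it as formate, which leaves for the cytosol. There the trifunctional Mthfd1 enzymes bind formate to tetrahydrofolate again for purine and thymidylate synthesis, while aldh1l2 burns the unit to carbon dioxide inside mitochondria. The arrangement is known chiefly from mammalian cells, where the mitochondrial branch and serine synthesis are targets of the stress factor ATF4.

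Libraries held between 51246749 and 56409917 counts, and every member had at least 240 counts in every library. *selenoh* had 1, 20, 0 and 0 counts in mutant replicates 1 to 4, against 854, 855, 1225 and 737 in wild type replicates 1 to 4, so each library matched its label. Both replicate 3 libraries stood apart from the others on the second principal component (20.5% of the variance), at -59.6 in the mutant and -71 in wild type, against 15.7 to 27.4 in the other libraries. Members, ratios and list counts are therefore given with and without this pair of libraries. Levels are in CPM, counts divided by library size with TMM scaling factors, which reduce differences in library composition.

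Of the serine synthesis genes, phgdh differed most. This gene of the enzyme that commits carbon to serine, had 70.7, 59.3, 47.4 and 43.7 CPM in mutant replicates 1 to 4, against 21.1, 23.3, 37.7 and 25.8 CPM in wild type replicates 1 to 4. Every mutant library lay above every wild type library, and wild type replicate 3 was the highest of its group. The mean of phgdh was 55.3 ± 12.3 CPM over mutant libraries and 27.0 ± 7.38 CPM over wild type ones (SD, n = 4 per group). It rose by 1.04 ± 0.21 on the log2 scale (log2 fold change ± SE; adjusted p = 0.0105, by the quasi-likelihood test of edgeR with Benjamini-Hochberg adjustment). In whole larvae, a larger share of cells that use a gene and more RNA of it per cell cannot be told apart.

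psat1, the transaminase of the second step, had 24.9, 30.6, 29.6 and 22.0 CPM in mutant replicates 1 to 4, against 11.1, 12.7, 25.2 and 18.1 CPM in wild type replicates 1 to 4. Only wild type replicate 3 reached into the mutant range. The log2 fold change was 0.67 ± 0.24 and did not pass with all 8 libraries (edgeR adjusted p = 0.0915), though it did in the DESeq2 Wald test (0.67, adjusted p = 0.0434). In edgeR it passed without wild type replicate 3 (0.94, adjusted p = 0.00862) and without both replicate 3 libraries (0.89, adjusted p = 0.0129).

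psph, the phosphatase of the last step, had 31.6, 33.3, 41.5 and 33.3 CPM in mutant replicates 1 to 4, against 22.9, 24.3, 31.6 and 28.5 CPM in wild type replicates 1 to 4. The groups met at the lowest mutant and the highest wild type library. The log2 fold change was 0.38 ± 0.13 (edgeR adjusted p = 0.0798). It was called without wild type replicate 3 (0.47, adjusted p = 0.0257) and without both replicate 3 libraries (0.37, adjusted p = 0.0238). All 3 serine synthesis genes thus had higher means in the mutant, and 1 of them, phgdh, was called with all 8 libraries.

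**Figure D1:**
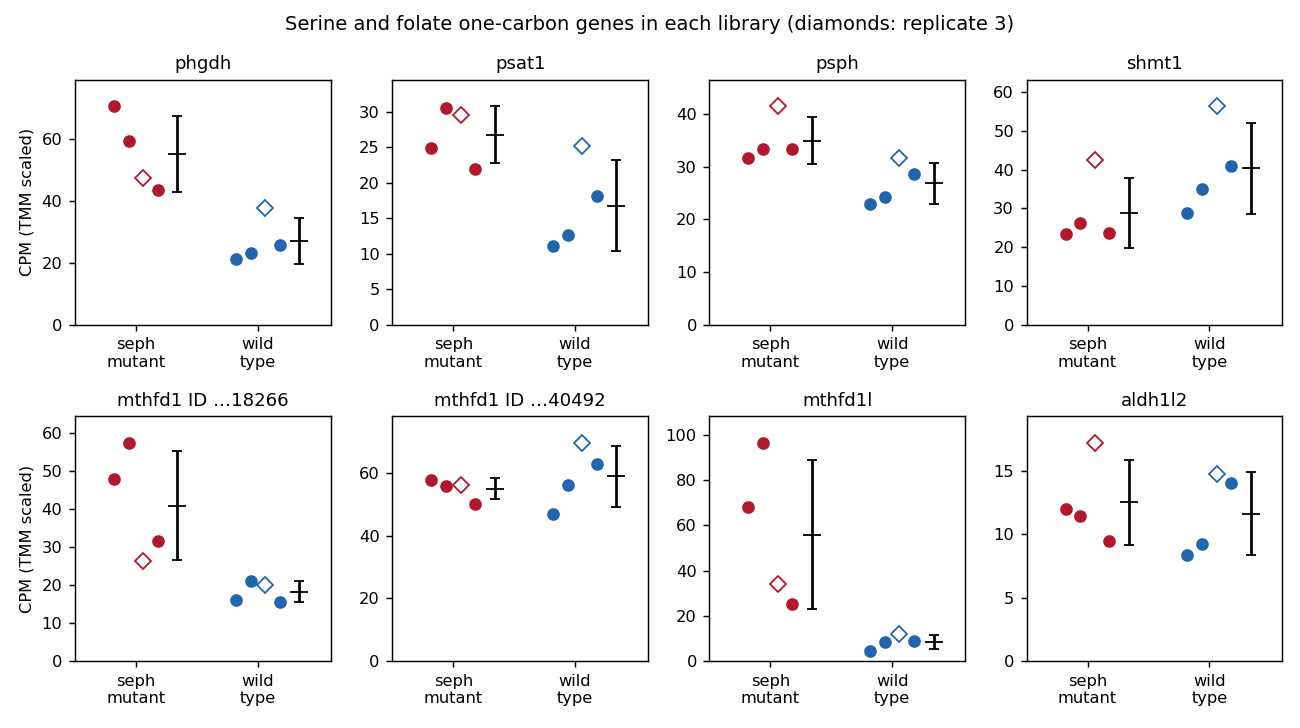
CPM of each member in each library, with *seph* mutant libraries in red at the left and wild type libraries in blue at the right of each panel; diamonds are the replicate 3 libraries, and black bars are the mean ± SD of 4 libraries. The groups are apart for phgdh, mthfd1l and the Mthfd1 gene ENSDARG00000018266, and the wild type diamond is the highest wild type point in 7 of the 8 panels.

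Among the folate enzymes of the member set, 1 gene of each compartment was called higher. The only mitochondrial members analysed were mthfd1l and aldh1l2, and the difference between them was not tested. Other mitochondrial folate genes, mthfd2l and the Slc25a32 carriers, are given with the related lists, and none of them was called higher. The mitochondrial formate-releasing synthetase mthfd1l (ENSDARG00000042221) showed the widest difference among the members. It had 68.2, 96.4, 33.9 and 25.2 CPM in mutant replicates 1 to 4, against 4.54, 8.59, 12.3 and 8.88 CPM in wild type replicates 1 to 4. Every mutant library lay above the wild type range, but the mutant libraries differed among themselves, the highest being 3.83 times the lowest. Mutant libraries averaged 55.9 ± 32.8 CPM of mthfd1l and wild type ones 8.57 ± 3.17 CPM (SD, n = 4 per group), a ratio of 6.52. mthfd1l rose by 2.70 ± 0.45 on the log2 scale (edgeR adjusted p = 0.00447), and by 3.11 ± 0.49 without both replicate 3 libraries.

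aldh1l2, the mitochondrial dehydrogenase that oxidises formyl-tetrahydrofolate, had 12.0, 11.4, 17.2 and 9.44 CPM in mutant replicates 1 to 4, against 8.37, 9.20, 14.7 and 14.0 CPM in wild type replicates 1 to 4. The groups overlapped over nearly their whole range, and replicate 3 was the highest library of each. Its log2 fold change was 0.11 ± 0.24 (edgeR adjusted p = 0.783).

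Of the cytosolic pair of Mthfd1 genes, ENSDARG00000018266 had 47.9, 57.5, 26.4 and 31.7 CPM in mutant replicates 1 to 4, against 16.2, 21.1, 20.2 and 15.5 CPM in wild type replicates 1 to 4. The groups did not overlap, and mutant replicates 1 and 2 were the highest libraries, as they were for mthfd1l. The gene rose by 1.16 ± 0.24 on the log2 scale (edgeR adjusted p = 0.0109). ENSDARG00000040492 had 57.5, 55.8, 56.1 and 49.9 CPM in mutant replicates 1 to 4, against 46.8, 56.0, 69.5 and 62.7 CPM in wild type replicates 1 to 4. The mutant values of this gene lay inside the wild type range, with a log2 fold change of -0.10 ± 0.13 (edgeR adjusted p = 0.633). The difference between the genes of this pair was not itself tested, and reads that match both could have been split between them.

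shmt1, the cytosolic serine hydroxymethyltransferase, had 23.4, 26.3, 42.4 and 23.7 CPM in mutant replicates 1 to 4, against 28.7, 35.1, 56.4 and 41.0 CPM in wild type replicates 1 to 4. Replicate 3 was the highest library in both groups, and the mutant one lay above every wild type library except wild type replicate 3. shmt1 was the member with the lowest log2 fold change, -0.48 ± 0.25, which did not pass with all 8 libraries (edgeR adjusted p = 0.221). It passed as lower without mutant replicate 3 (-0.72, adjusted p = 0.0483) and without both replicate 3 libraries (-0.52, adjusted p = 0.022).

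In count, 3 of the 8 members tested rose and 0 fell, beside 8.65% of all genes tested called higher and 8.45% called lower. Those that rose include ENSDARG00000018266, which may be mthfd1a and not the member mthfd1b. Both Mthfd1 IDs were counted as members and kept out of the folate list. The members were chosen with earlier results of these data known, so these counts describe and do not test. At an unadjusted edgeR p under 0.05, 5 members were higher, psat1 and psph being added, and 0 lower, beside 16.1% and 15.8% of all genes tested. The DESeq2 Wald test called 4 members higher, where it called 3090 genes higher and 3319 lower over all genes. limma-voom called 5 members higher, where it called 5039 genes higher and 4765 lower. Neither tool called any member lower. The members' median log2 fold change was 0.53, beside 0.01 over all genes tested. Every mutant library lay above every wild type library for those same 3 members, beside 11.0% of all genes tested, and for 0 members did every mutant library lie below (11.1% of all genes tested). Without both replicate 3 libraries 5 members were called higher and 1 lower, beside 15.5% and 14.6% of genes tested. With library size in place of TMM 3 members were called higher and 0 lower, beside 2713 and 1647 of the 27050 genes tested, where TMM gave 2339 higher and 2287 lower.

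**Figure D2:**
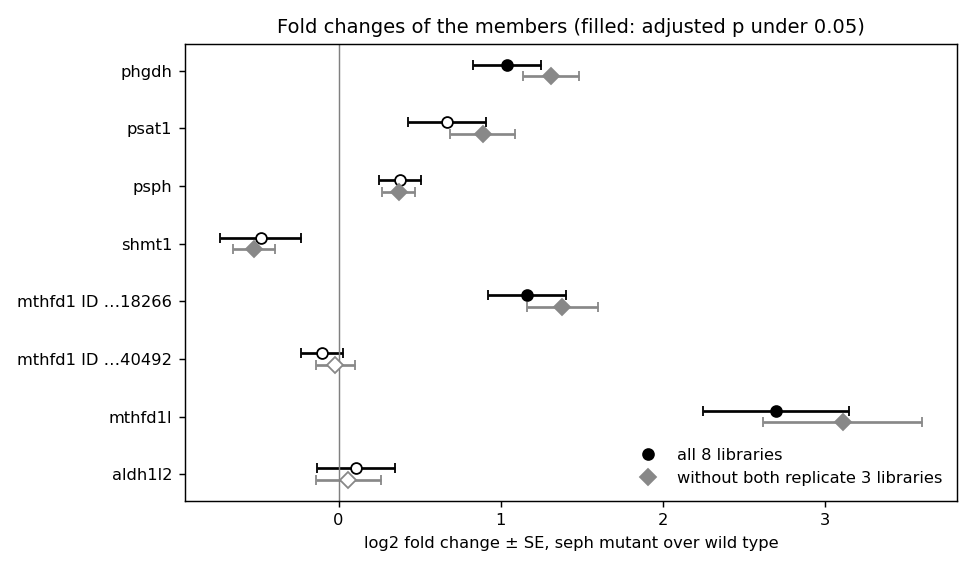
Log2 fold change ± SE of each member, *seph* mutant over wild type, with all 8 libraries (black circles) and without both replicate 3 libraries (grey diamonds); filled symbols have an adjusted p under 0.05. mthfd1l stands farthest to the right at 2.70, and psat1, psph and shmt1 are filled in the smaller set of libraries only.

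The mitochondrial and cytosolic enzymes of 1 reaction were also compared as a ratio of counts inside each library, where scaling cancels. These ratios are not corrected for gene length, so only their change between groups is read. The count of mthfd1l over the summed counts of both Mthfd1 genes was 0.647, 0.851, 0.411 and 0.308 in mutant replicates 1 to 4, against 0.0722, 0.111, 0.137 and 0.113 in wild type replicates 1 to 4. Every mutant library was above every wild type library, by 2.28 on the log2 scale in the means (p = 0.0286 in an exact permutation test, two-sided, where 4 and 4 libraries allow no smaller p; adjusted over the 2 ratios it is 0.0571 and misses 0.05). The difference was 1.48 against ENSDARG00000018266 alone and 2.68 against ENSDARG00000040492 alone, with the same exact p = 0.0286 for each. These single-gene ratios were chosen after seeing the data, so they describe and do not test. The second largely repeats the log2 fold change of mthfd1l (2.70), as ENSDARG00000040492 barely moved (-0.10). Without both replicate 3 libraries the difference to the summed Mthfd1 counts was 2.51 (exact permutation p = 0.1, the smallest that 3 against 3 libraries allow).

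The second ratio set aldh1l2 against aldh1l1, its cytosolic counterpart. It was 0.132, 0.114, 0.33 and 0.143 in mutant replicates 1 to 4, against 0.0536, 0.0592, 0.222 and 0.121 in wild type replicates 1 to 4. Replicate 3 was the highest library of both groups and the groups overlapped. The means differed by 0.76 on the log2 scale (p = 0.229 in the exact permutation test, also 0.229 adjusted). Without wild type replicate 3 the difference was 1.17 and without mutant replicate 3 it was 0.42, which missed the threshold too (exact permutation p = 0.0857 and 0.4). Without both it was 0.83 (exact permutation p = 0.2). aldh1l1 itself had a log2 fold change of -0.67 ± 0.29 (edgeR adjusted p = 0.144), and passed as lower without wild type replicate 3 (-0.88, adjusted p = 0.0212).

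Around the members, the remaining folate genes went both ways. The list for the folate cycle and folate transport also held genes outside both, such as gphn. Of its 17 genes 1 rose and 2 fell (5.9% and 11.8%). This was near the shares over all genes tested, 8.65% called higher and 8.45% called lower. The list's median log2 fold change was -0.03. ggh, which trims the glutamate tail of stored folates, rose by 0.48 ± 0.13. mthfsd fell by 0.63 ± 0.14, and the Slc25a32 gene ENSDARG00000089791, a carrier that brings folate into mitochondria, fell by 0.51 ± 0.15. Its paralog ENSDARG00000026835 had a log2 fold change of 0.42 ± 0.23, and mthfd2l, a mitochondrial relative of mthfd2, one of -0.39 ± 0.21 at no more than 2.49 CPM in any library. ggh lost its call when any 1 library outside the replicate 3 pair was left out (0.39 to 0.50), and ENSDARG00000089791 without any single library except wild type replicate 3 (-0.53 to -0.44). ENSDARG00000089791 also lost it with upper-quartile factors (-0.50, adjusted p = 0.0531) and with library size only (-0.42, adjusted p = 0.0586). Without wild type replicate 3 the list had 5 higher and 4 lower genes, where 3667 and 3374 were called over all genes. Without both replicate 3 libraries it had 4 higher and 4 lower (23.5% each), beside 15.5% and 14.6% of all genes tested.

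Of the related lists, that of purine and thymidylate synthesis held the largest called increases, those of atic, paics and impdh2. Its other called increase, of ppat, was smaller than that of ahcyl2a in the methionine list (0.56 against 0.67). Whether formate supply has a part in these differences was not tested. Of 14 genes of purine and thymidylate synthesis 4 rose and 1 fell (28.6% and 7.1%), beside 8.65% and 8.45% of all genes tested. The list's median log2 fold change was 0.21. The list's entries gart, adss1, prps1a, tk1 and dut were not analysed here. tyms and dhfr stood in the folate list and were not called (0.12 ± 0.3 and -0.33 ± 0.42). atic, which adds the last formyl group to the purine ring and closes it, had 89.7, 136, 47.2 and 74.9 CPM in mutant replicates 1 to 4, against 35.0, 38.6, 41.9 and 38.6 CPM in wild type replicates 1 to 4. It rose by 1.18 ± 0.27 on the log2 scale. Every mutant library was above the wild type ones, with replicate 3 the nearest to them.

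paics, a bifunctional enzyme of the middle of the pathway, had 184, 263, 117 and 172 CPM in mutant replicates 1 to 4, against 78.6, 74.6, 98.7 and 87.8 CPM in wild type replicates 1 to 4, and rose by 1.11 ± 0.22. The groups did not overlap. impdh2, which turns the product toward guanine nucleotides, rose by 0.88 ± 0.17, while its paralog impdh1 (ENSDARG00000042336) fell by 1.25 ± 0.23. The other impdh1 gene, ENSDARG00000029524, was not called (0.07 ± 0.22). ppat, the first enzyme of the pathway, rose by 0.56 ± 0.16 with 1 mutant library, replicate 3 at 33.1 CPM, inside the wild type range of 29.7 to 35.5 CPM. The edgeR adjusted p-values were 0.0171 for atic, 0.00929 for paics, 0.00763 for impdh2, 0.00643 for ENSDARG00000042336 and 0.0449 for ppat. atic lost its call without wild type replicate 1 or 2 (1.13 to 1.17), and ppat without any single library except mutant replicate 3 (0.42 to 0.60). The list's count of higher genes was 2 without wild type replicate 1 or 2, where 1292 and 1262 were called higher over all genes. Without both replicate 3 libraries 6 were higher and 1 lower (42.9% and 7.1%), beside 15.5% and 14.6% of all genes tested.

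**Figure D3:**
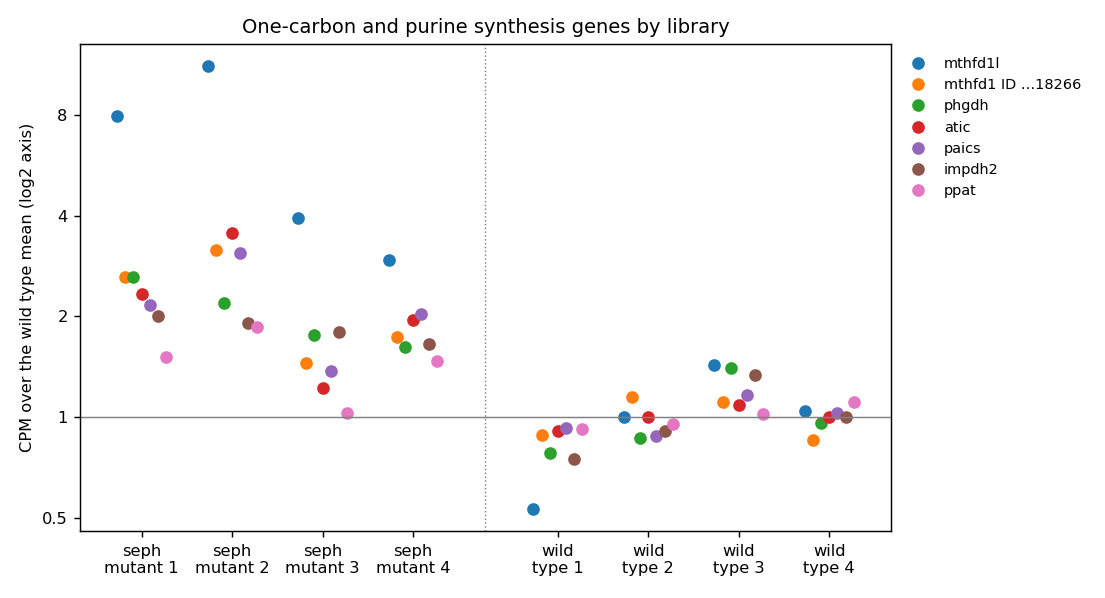
CPM of mthfd1l, the Mthfd1 gene ENSDARG00000018266, phgdh and 4 called purine synthesis genes in each library, divided by the gene's wild type mean, on a log2 axis; mutant libraries are at the left. mthfd1l, ENSDARG00000018266, atic, paics and ppat are highest in mutant replicate 2, where mthfd1l is at 11.2 times its wild type mean and atic at 3.54 times.

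Mutant replicates 1 and 2 lay above mutant replicates 3 and 4 for mthfd1l, ENSDARG00000018266, phgdh, impdh2, atic, paics and ppat, while the order within each pair differed between genes. The members psat1, psph, shmt1, aldh1l2 and ENSDARG00000040492 did not show this split. It was not particular to these pathways: the liver gene fgb had 252, 309, 182 and 201 CPM in mutant replicates 1 to 4. fgg and slc1a3 split likewise, while other named genes such as uox did not. mthfd1l was at 7.96, 11.2, 3.95 and 2.94 times its wild type mean in mutant replicates 1 to 4, against 0.53, 1.0, 1.43 and 1.04 times in wild type replicates 1 to 4. For atic the values were 2.33, 3.54, 1.22 and 1.95 times in the mutant, against 0.908, 1.0, 1.09 and 1.0 times in wild type. With 4 libraries this split is a description and was not tested.

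Genes that use serine and glycine showed no common direction. Of 20 genes 2 rose and 2 fell, near the 8.65% called higher and 8.45% called lower over all genes tested. The list's median log2 fold change was 0.17. Both Sptlc2 genes, subunits of the enzyme that joins serine to a fatty acid for sphingolipids, rose: ENSDARG00000074287 by 0.58 ± 0.11 and ENSDARG00000018976 by 0.52 ± 0.14. The glyoxylate transaminase agxt (ENSDARG00000052099) fell by 1.22 ± 0.27 and the glycine cleavage enzyme amt fell by 0.42 ± 0.12. The other agxt gene, ENSDARG00000018478, was not called (-0.52 ± 0.23), at means of 167 CPM in mutant and 239 CPM in wild type libraries. sfxn1, which carries serine into mitochondria, had a log2 fold change of 0.47 ± 0.16 (edgeR adjusted p = 0.0722) and passed without mutant replicate 4 or wild type replicate 4 (0.56 to 0.58). ENSDARG00000018976 lost its call when mutant replicate 1, 2 or 4 was left out, and likewise for wild type replicate 1 or 2 (0.45 to 0.55). amt lost its call when mutant replicate 1, 3 or 4 was left out, and likewise for wild type replicate 2 or 4 (-0.44 to -0.33). amt also lost it without both replicate 3 libraries (-0.38, adjusted p = 0.0584) and with library size only (-0.34, adjusted p = 0.106). Without wild type replicate 3 the list had 4 higher genes, where 3667 were called higher over all genes. Without both replicate 3 libraries it had 5 higher and 3 lower (25.0% and 15.0%), beside 15.5% and 14.6% of all genes tested.

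Of 19 genes of the methionine cycle and transsulfuration 2 rose and 2 fell (10.5% each). This was near the 8.65% called higher and 8.45% called lower over all genes tested. The list's median log2 fold change was 0.09. The list also held genes outside both pathways, such as gamt and mtap. The creatine-making methyltransferase gamt fell by 0.87 ± 0.14, to 281 ± 11.6 CPM in mutant libraries, against 515 ± 100.4 CPM in those of wild type (SD, n = 4 per group). The methionine adenosyltransferase gene mat2a (ENSDARG00000037121) fell by 1.35 ± 0.37, from a mean of 40.6 CPM in wild type to 16.0 CPM. The more abundant mat2a gene ENSDARG00000040334 was not called (0.29 ± 0.24), at 159 CPM in mutant and 129.6 CPM in wild type libraries. ahcyl2a rose by 0.67 ± 0.13 and the methylthioadenosine phosphorylase mtap rose by 0.45 ± 0.13. ahcy, after which ahcyl2a is named, was not called (-0.1 ± 0.1). mtap lost its call when any 1 library outside the replicate 3 pair was left out (0.39 to 0.50). ENSDARG00000037121 lost its call when mutant replicate 1, 2 or 3 was left out, and likewise for wild type replicate 1, 2 or 4 (-1.37 to -1.20). Without wild type replicate 3 the list had 4 higher genes, where 3667 were called higher over all genes. Without both replicate 3 libraries it had 4 higher and 4 lower (21.1% each), beside 15.5% and 14.6% of all genes tested.

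**Figure D4:**
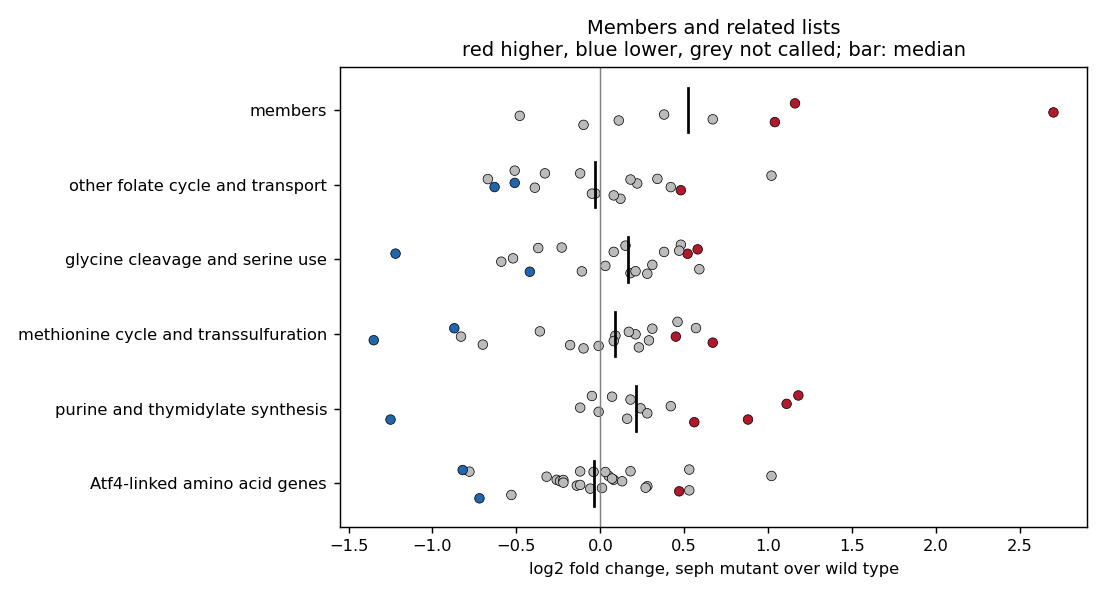
Log2 fold change of each gene, *seph* mutant over wild type, for the members and 5 related lists, with called genes in red (higher) or blue (lower), genes not called in grey and the list median as a black bar; vertical scatter within a list has no meaning. mthfd1l lies beyond every gene of the related lists, whose medians run from -0.04 to 0.21.

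Of 27 genes linked to ATF4 in mammals, outside the serine and folate members, 1 rose and 2 fell (median log2 fold change -0.04). These are 3.7% and 7.4%, beside 8.65% and 8.45% of all genes tested. The list holds amino acid genes and also others, such as atf4b itself, ddit3, trib3 and vldlr. Its entries atf4a, slc7a5, pycr1a, pycr1b, aldh18a1 and wars1 were not analysed here. The translation repressor eif4ebp1 rose by 0.47 ± 0.11, while the arginine and lysine transporter slc7a3 (ENSDARG00000020645) fell by 0.82 ± 0.14 and nupr1b fell by 0.72 ± 0.11. The other slc7a3 gene, ENSDARG00000061566, was not called (-0.12 ± 0.23). The asparagine synthetase asns had 22.4, 30.9, 27.1 and 30.0 CPM in mutant replicates 1 to 4, against 13.3, 13.4, 22.9 and 26.9 CPM in wild type replicates 1 to 4. These groups overlapped, and the log2 fold change was 0.53 ± 0.24 (edgeR adjusted p = 0.159). eif4ebp1 lost its call when mutant replicate 1 or 2 was left out, and likewise for wild type replicate 1, 2 or 4 (0.41 to 0.46). Without mutant replicate 3 the list had 2 higher genes, where 2475 were called higher over all genes. Without wild type replicate 3 it had 2 higher and 4 lower genes, where 3667 and 3374 were called over all genes. Without both replicate 3 libraries the list had 2 higher and 3 lower (7.4% and 11.1%), beside 15.5% and 14.6% of all genes tested.

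Over the 12213 named genes averaging 5 CPM or more, the level of galc followed that of mthfd1l most closely over the 8 libraries (Pearson r of log2 CPM 0.991), then eif4ebp1 (0.985), lhfpl6, pdlim4 and rgs4 (0.981 each). All 5 were called higher, by 0.40 to 0.79 on the log2 scale, and lhfpl6 lost its call when mutant replicate 1 or 2 was left out, and likewise for wild type replicate 1, 2 or 4 (0.34 to 0.39). All 8 libraries share the genotype difference, so these values describe and do not test. galc encodes a lysosomal galactolipid hydrolase and rgs4 a regulator of G protein signalling. Among the other members phgdh ranked 47 (0.958), ENSDARG00000018266 57 (0.953), psat1 1004 (0.839), psph 2167 (0.712), aldh1l2 4685 (0.308), ENSDARG00000040492 5804 (0.077) and shmt1 8132 (-0.422).

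Marker genes of several cell types and states also differed between the groups. Their counts stand beside 8.65% of all genes tested called higher and 8.45% called lower. Without both replicate 3 libraries these shares were 15.5% and 14.6%. The summed level of 15 exocrine pancreas genes, all of which fell, was 109 to 248 CPM in mutant libraries, against 14084 to 34713 CPM in wild type libraries, with none of them at 0 counts in any library; among them ela2, amy2a, ctrb.2 and cpa1 had log2 fold changes of -8.44, -8.35, -8.16 and -7.42. Of 12 hepatocyte genes 5 rose and 1 fell, and their sum was 5092 to 7353 CPM in mutant libraries, against 4329 to 5898 CPM in wild type ones. The called ones included hp (2.61), fgb (1.03) and fgg (0.88), and uox (-1.56), as log2 fold changes, and the fallen ones numbered 2 without wild type replicate 3 and without both replicate 3 libraries. Over all genes 3374 were called lower without wild type replicate 3. hp was near the filter, with 7 to 11 counts in wild type libraries and 24 to 89 in mutant ones. With a minimum count of 50, 4 hepatocyte genes rose. fabp10a was lower but not called (-0.82 ± 0.33). Of 7 radial glia genes, a cell type rich in phgdh in mammals, 3 rose (slc1a3, s100b and the Fabp7 gene ENSDARG00000034650) and 1 fell (slc1a2). Their sums were 605 to 642 CPM in mutant libraries, against 475 to 633 CPM in wild type ones. Without both replicate 3 libraries 4 rose and 1 fell. ENSDARG00000034650 averaged 5.63 CPM in mutant libraries. The more abundant Fabp7 gene ENSDARG00000007697 was not called (-0.07 ± 0.27), at 173 CPM in mutant and 181 CPM in wild type libraries.

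Of 14 macrophage genes tested 4 rose and 0 fell, beside 8.65% and 8.45% of all genes tested. Without both replicate 3 libraries 5 rose and 0 fell, beside 15.5% and 14.6%. At an unadjusted edgeR p under 0.05, 8 were higher and 0 lower, beside 16.1% and 15.8%. Among the called ones were marco (1.56) and irf8 (1.54). Summed levels were 119 to 237 CPM in mutant libraries, against 70.7 to 104 CPM in wild type ones. The other called ones are a pair of Mfap4 genes, ENSDARG00000090557 and ENSDARG00000038681 (0.82 and 0.89), and ENSDARG00000038681 lost its call when mutant replicate 1, 3 or 4 was left out, and likewise for wild type replicate 1, 2 or 3 (0.73 to 0.95). It also lost it without both replicate 3 libraries (0.88, adjusted p = 0.0707), with upper-quartile factors and with no filter on low counts. Of 14 genes of proliferating cells, which depend on folate for DNA synthesis, 0 rose and 0 fell in the edgeR test, with sums of 385 to 664 CPM in mutant libraries, against 414 to 1152 CPM in wild type ones, with replicate 3 the highest of each group. top2a and ccna2 had log2 fold changes of -1.02 ± 0.35 and -0.93 ± 0.35. At an unadjusted edgeR p under 0.05 these 2 were lower, and the DESeq2 Wald test called both. top2a also passed as lower with limma-voom, without mutant replicate 3 (-1.30) and without both replicate 3 libraries (-0.87), and ccna2 without wild type replicate 1 (-1.17). The list median was -0.29 with all 8 libraries and 0.04 without both replicate 3 libraries, where 8 of the 14 genes had a positive log2 fold change, against 1 of 14 with all libraries. Whether these cell types or states have a part in the members' differences was not tested.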

How the data were processed

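Polyadenylated RNA of 8 whole-larva samples was sequenced. The table deposited by the authors gives raw read counts for each Ensembl gene, made with STAR 2.3.0e and HTSeq 0.6.0 per the submitters' processing notes. Genome build, annotation release, strand setting and the treatment of multi-gene reads have no label (not given in the sources used here), so values of paralogs and overlapping genes are uncertain. Of 32434 genes, 20769 had a symbol in the name table. Symbols are written in lower case.

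Genes passing filterByExpr (minimum count 10) were given TMM scaling factors and compared by edgeR 4.0.16 in R 4.3.3 (quasi-likelihood test, genotype as the only term, Benjamini-Hochberg adjustment over 27050 genes). An adjusted p under 0.05 is a call. Each standard error is the log2 fold change over the square root of its F statistic. Count ratios carried a pseudocount of 0.5 counts and were tested over the 70 arrangements of 4 and 4 libraries. The planned ratio of shmt2 to shmt1 was not analysed here. Of 177 entries in 10 lists, 146 were matched by symbol, a RefSeq (GRCz12tu) synonym or a symbol stripped of a last a or b. The entry dldh was left out because its name is shared with another gene.

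The members and lists were chosen with earlier results of these data known. Named are all members, *selenoh*, of each list up to 4 called genes with the smallest p or, where none was called, 2 genes, and the 5 genes most like mthfd1l. ppat, aldh1l1, mthfd2l, sfxn1, asns and the second Slc25a32 gene were added after their values were seen.

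Scaling was varied (library size only, DESeq2 size factors, upper-quartile factors), as was the tool (limma-voom of limma 3.58.1 with quality weights, the Wald test of DESeq2 1.42.0). Other alternatives were no filter, a minimum count of 50, a replicate block, each library left out, both replicate 3 libraries left out, and genes with identical counts removed. The ratios to single Mthfd1 IDs were chosen after seeing the data.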

Additional observations from a re-analysis of the deposited data

Results flagged for a closer look

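With 4 libraries in a group, a library is listed here when its gap to the nearest other library, divided by the group's range, exceeds Dixon's 95% critical value. Chance lists about 1 group in 20, and 6 of 114 groups of values were listed. shmt1 in mutant replicate 3 was at 42.4 CPM, with the next mutant library at 26.3 CPM. The ratio of aldh1l2 to aldh1l1 was 0.33 in mutant replicate 3, with the next at 0.143. *selenoh* in mutant replicate 2 was at 0.358 CPM, with the next mutant library at 0.0181 CPM. In wild type replicate 3, agxt (ENSDARG00000052099) was at 24.4 CPM below the next at 47.3 CPM, amy2a was at 453 CPM below the next at 642 CPM, and top2a was at 59.9 CPM above the next at 27.5 CPM. Of the 6 values 5 belong to a replicate 3 library.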

How the results depend on the processing

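mthfd1l, phgdh and ENSDARG00000018266 kept their calls under all 18 alternatives, with log2 fold changes of 2.31 to 3.11, 0.89 to 1.31 and 0.95 to 1.38 and adjusted p of up to 0.0198, 0.0415 and 0.0415. Members called higher numbered 5 with limma-voom, with the replicate block and without both replicate 3 libraries, and 3 to 5 with 1 library left out; members called lower numbered 1 with the replicate block and without both replicate 3 libraries, and 0 to 1 with 1 library left out. Over all genes 5039 were higher and 4765 lower with limma-voom, 3783 and 3623 with the replicate block, and 4200 and 3956 without both replicate 3 libraries, while leaving out 1 library gave 1262 to 3667 higher and 1235 to 3374 lower; the cause was not tested. Library size only gave 2713 higher and 1647 lower, against 2339 and 2287 with TMM. Same-numbered libraries correlated in their deviations from the group means by 0.095, 0.066, 0.46 and 0.237. For mutant replicates 1, 3 and 4 the same-numbered wild type library correlated best. Mutant replicate 2 correlated more with wild type replicates 1 and 4 (0.124 and 0.113). Whether the numbers mark pairs has no label, so the main test has no block. With the replicate block edgeR also called psat1 (0.73, adjusted p = 0.0368) and psph (0.38, adjusted p = 0.0119) higher. It called shmt1 lower (-0.48, adjusted p = 0.0136). With the block, ratio differences stayed at 2.28 and 0.76 (exact sign-flip p = 0.125 each, the smallest possible). With 1 library left out they were 2.04 to 2.53 and 0.42 to 1.17. Signs turned for ENSDARG00000040492 with limma-voom (0.01) and for aldh1l2 without mutant replicate 3 (-0.08) or wild type replicate 1 (-0.02), none of them called; aldh1l2 ran from -0.08 to 0.25 with 1 library left out.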
